A study of Homo sapiens with 6 samples.

Results

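Skipped exons were examined in genes of apoptosis and of the p53 pathway in breast cancer cells depleted of a spliceosome protein. A list of 38 genes was used, and an exon of these genes was kept if it had at least 20 informative reads in the control and in at least 1 knockdown. Informative reads are those that fit only the transcript with the exon (inclusion reads) or only the transcript without it (exclusion reads). The rule kept 100 exons in 28 of the 38 genes, out of 17935 exons that met the same read rule in all genes and 40658 skipped exons measured. Some of the 100 are longer and shorter forms of 1 exon, so that they covered 83 separate stretches of the genome. Of the other 10 genes, BAK1, BIRC3, CASP10 and FAS had only exons under the read rule, and BCL2, BIK, ENDOG, FADD, TNFRSF10A and TRADD had no event in the summaries used.

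The cells were MDA-LM2, a subline of the breast cancer line MDA-MB-231 selected for metastasis to the lung, and the parent line is known to carry mutant p53. They were transfected with siRNAs, and total RNA was taken 48 h later. The 3 groups were siCtrl (2 libraries, control siRNA), siSNRPA1 (3 libraries, siRNAs against SNRPA1, a protein of the U2 snRNP) and siSNRPB (1 library, siRNA against SNRPB, the core protein SmB/B′ of spliceosomal snRNPs). The deposited values exist once per group, here called a pool, so no spread between libraries could be computed and every test compares the reads of 2 pools.

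Apoptosis runs through 2 connected routes. Death receptors such as FAS and the TRAIL receptors activate caspase-8, which FLIP (CFLAR) restrains, while in the mitochondrial route members of the BCL2 family decide whether the outer membrane is permeabilised and cytochrome c drives APAF1 and caspase-9. IAP proteins hold caspases or receptor complexes in check and are opposed by SMAC (DIABLO) and HTRA2, and p53, which is held down by MDM2 and MDM4, induces several BH3-only genes. Many of these genes are known to make alternatively spliced forms whose proteins differ in activity.

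Exons on which several of the results turn are printed here 5′ to 3′ with the skipped exon in capitals and the 15 bases of the exon on each side in lower case, as joined in GENCODE 29 transcripts (hg38). Their places are chr2:201272898-201272942 (CASP8), chr2:111150044-111150147 (BCL2L11), chr22:17702243-17702386 (BCL2L13), chr17:78216664-78216781 (BIRC5), chr12:98703371-98703499 (APAF1), and chr1:204537430-204537497 and chr1:204537459-204537497 (MDM4), all on the plus strand. The last pair are the long and the short form of 1 MDM4 exon, which end at the same base.
CASP8, 45 nt: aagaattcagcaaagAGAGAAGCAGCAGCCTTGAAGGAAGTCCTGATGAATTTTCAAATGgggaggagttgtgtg
BCL2L11, 104 nt: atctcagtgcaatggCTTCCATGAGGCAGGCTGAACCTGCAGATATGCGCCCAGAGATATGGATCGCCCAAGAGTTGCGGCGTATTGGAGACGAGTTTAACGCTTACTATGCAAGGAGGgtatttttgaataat
BCL2L13, 144 nt: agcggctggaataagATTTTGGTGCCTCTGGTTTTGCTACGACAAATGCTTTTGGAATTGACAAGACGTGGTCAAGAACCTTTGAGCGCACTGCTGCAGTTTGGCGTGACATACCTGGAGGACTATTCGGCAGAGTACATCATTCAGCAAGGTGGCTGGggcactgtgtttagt
BIRC5, 118 nt: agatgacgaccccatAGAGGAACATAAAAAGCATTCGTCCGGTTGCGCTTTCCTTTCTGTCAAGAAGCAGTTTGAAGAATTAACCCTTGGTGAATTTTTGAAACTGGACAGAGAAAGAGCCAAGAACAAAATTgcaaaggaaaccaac
APAF1, 129 nt: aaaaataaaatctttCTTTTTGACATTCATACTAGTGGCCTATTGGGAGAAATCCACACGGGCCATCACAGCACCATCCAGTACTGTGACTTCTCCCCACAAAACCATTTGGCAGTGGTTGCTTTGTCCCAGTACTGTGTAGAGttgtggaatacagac
MDM4, 68 nt: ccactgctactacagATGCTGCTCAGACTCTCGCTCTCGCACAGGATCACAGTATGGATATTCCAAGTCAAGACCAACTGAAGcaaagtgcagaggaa
MDM4, 39 nt: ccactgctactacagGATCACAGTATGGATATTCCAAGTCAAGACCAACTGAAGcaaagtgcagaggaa

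The knockdowns were visible in the reads of the targeted genes. Reads that fit an isoform of the SNRPA1 events came to 118 per 1000000 such reads in siCtrl, 21.9 in siSNRPA1 and 272 in siSNRPB, and those of SNRPB to 247, 337 and 30.6. The pools differed in depth, with 5707839, 7831446 and 3396043 informative reads in siCtrl, siSNRPA1 and siSNRPB over all events. The 100 exons held 26694, 34778 and 15784 of these reads, with a median per exon of 121.5, 173.5 and 65. At least 20 informative reads were present for all 100 exons in siCtrl, for 99 in siSNRPA1 and for 87 in siSNRPB.

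The inclusion level is the authors' estimate, from 0 to 1, of the fraction with the exon among transcripts that join its flanking exons with or without it. It was at least 0.9 in siCtrl for 47 of the 100 exons, at most 0.1 for 20 and between these bounds for 33. Over all exons of the read rule 43.7% were at least 0.9 and 20.5% at most 0.1. In all 3 pools 33 exons had no exclusion read at all. In siCtrl alone this held for 52% of the 100 exons, against 56% of all exons of the read rule. The median length of the 100 exons was 130 nt, and that of all exons of the read rule 123 nt. Of the 100 exons 38% had a length that is a multiple of 3 and 64% were coding, against 41.7% and 59.4% of all exons of the read rule. The median introns of the 100 exons were 3113 nt upstream and 2328 nt downstream, against 2170 and 2019 nt. Removing or inserting the exon changed the stop codon of an annotated transcript in 52 exons, in 37 of them to a stop more than 50 nt before the last junction, and 23 exons were in frame with the same stop codon.

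The reads of 2 pools were compared by a two-sided Fisher's exact test, adjusted over all tested exons of the table (Benjamini-Hochberg). Testing required 20 informative reads or more in both pools, and their sum had to hold 5 or more reads of each class. Passing required an adjusted p under 0.05 and inclusion levels that differed by 0.1 or more, with the same sign as the shares of inclusion reads. "Rose" and "fell" are used here of exons that passed. Such a test covers counting error only, since reads without molecular identifiers are not independent molecules.

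In siSNRPA1 against siCtrl, 42 of the 100 exons could be tested, of which 4 fell and 1 rose. This is 9.52% and 2.38% of those tested, beside 12.8% lower and 4.18% higher among all 6459 tested exons. The median difference was -0.025 over the 42 exons and -0.02 over all tested exons. The falls were both forms of BIRC5, AIFM1 and the long MDM4 form, and the rise was CASP8.

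In siSNRPB against siCtrl, 30 exons could be tested, of which 9 fell and 1 rose. This is 30% and 3.33%, beside 16.7% lower and 4.62% higher among all 4244 tested exons. Several of these exons overlap, so that the 10 exons lay in 7 of the 22 separate stretches tested. The falls were in CASP4, BCL2L11, BCL2L12, BCL2L13, BIRC5 and MDM4, and the rise was in MDM2. The median difference was -0.015 over the 30 exons and -0.01 over all tested exons.

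In the direct comparison of siSNRPB with siSNRPA1, 34 exons could be tested, of which 2 were lower in siSNRPB (BCL2L11 and BCL2L13) and 2 higher (APAF1 and MDM2). The background was 8.28% lower and 6.38% higher among 5082 tested exons. Over the 3 comparisons 13 exons of 10 genes, in 10 separate stretches, passed at least once. They came from 46 exons tested in at least 1 comparison, and the other 54 exons were tested in none. The share of all exons that passed at least once was not computed. Of the 13 exons, 76.9% were coding and 61.5% had a length that is a multiple of 3. Over all exons of the read rule, passing or not, these were 59.4% and 41.7%. With so few exons, some of them forms of 1 exon, no difference is read from this. The comparisons of the knockdowns with siCtrl share the siCtrl reads.

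**Figure D1:**
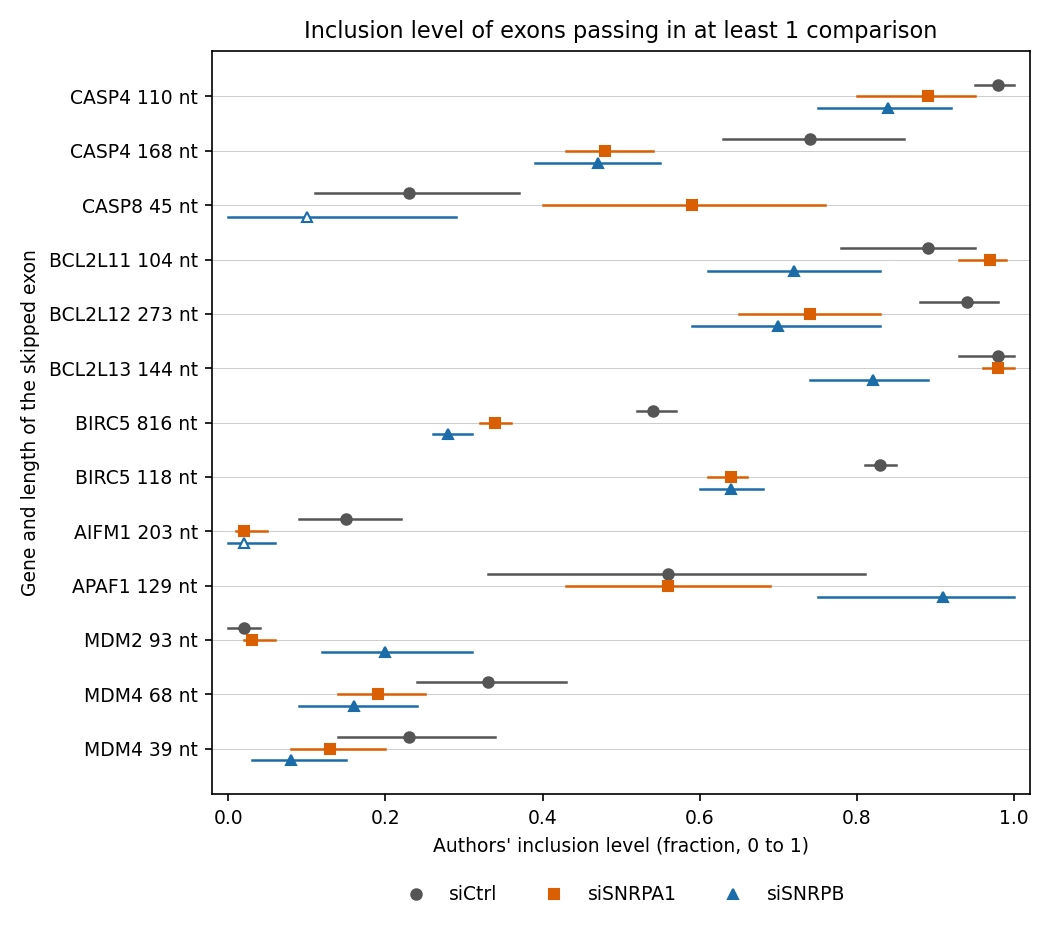
Authors' inclusion level (horizontal axis, 0 to 1) of the 13 exons that passed in at least 1 comparison, for siCtrl (circles), siSNRPA1 (squares) and siSNRPB (triangles), with the authors' interval as a line and an open marker where the pool had under 20 informative reads. The BIRC5 intervals of both knockdowns lie below those of siCtrl, while for MDM2, BCL2L13 and APAF1 the siSNRPB marker stands apart from the other 2. For BCL2L11 the siCtrl marker lies between those of the knockdowns, and its interval overlaps that of siSNRPB.

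**Figure D2:**
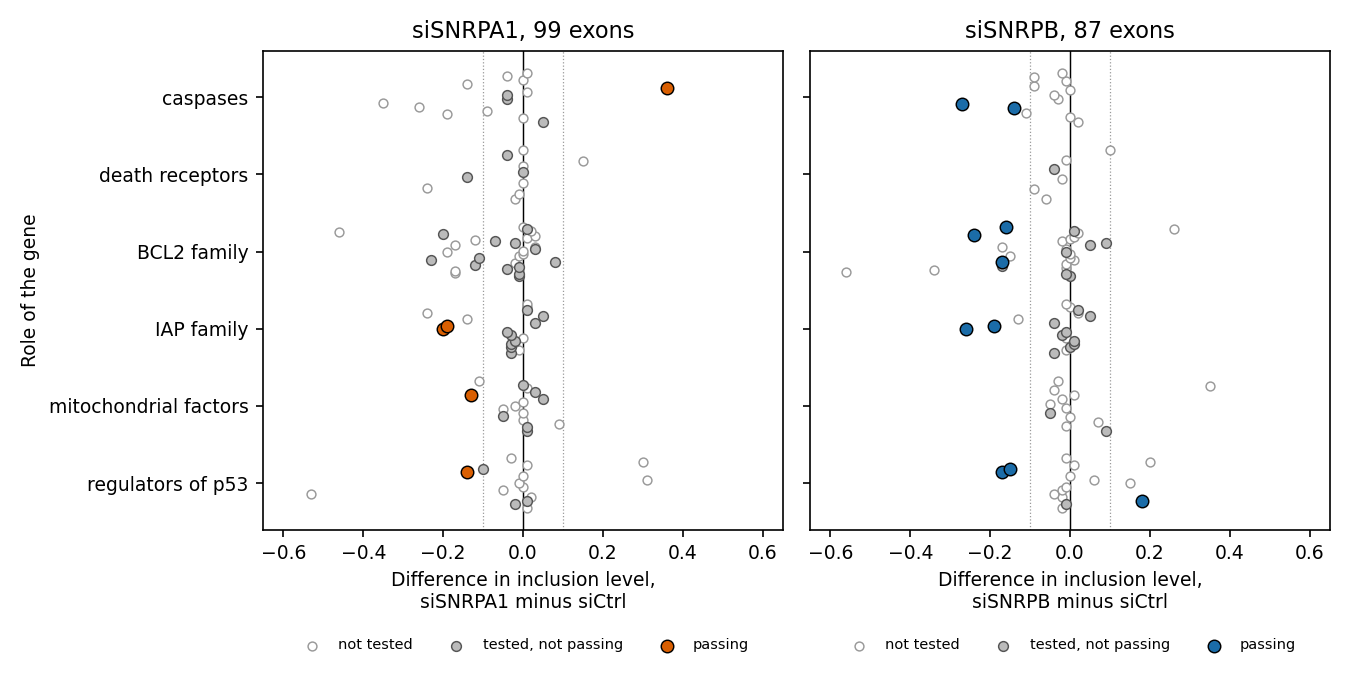
Difference in inclusion level from siCtrl (horizontal axis) by the role of the gene (vertical axis) for the 99 exons with enough reads in siSNRPA1 (left) and the 87 in siSNRPB (right). Filled coloured points passed, grey points were tested and did not pass, open points could not be tested, and dotted lines mark a difference of 0.1.

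Among the caspases, 14 exons of 5 genes were kept. CASP8, the initiator caspase of the death receptor route, rose in siSNRPA1 at its 45-nt exon. The inclusion level was 0.23 in siCtrl (interval 0.11 to 0.37), 0.59 in siSNRPA1 (0.4 to 0.76) and 0.1 in siSNRPB (0 to 0.29). Few reads lay behind it. Those for inclusion numbered 8, 24 and 0 in siCtrl, siSNRPA1 and siSNRPB and those for exclusion 13, 7 and 3, so the exon could not be tested in siSNRPB. The share of inclusion reads was 39.3 percentage points higher in siSNRPA1 than in siCtrl (95% Newcombe interval 12.1 to 60, adjusted p = 0.0306 by Fisher's exact test), and the rise did not pass without the minimum per read class (adjusted p = 0.084). The exon keeps the frame, and its insertion lengthens an annotated protein from 496 to 511 residues.

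CASP4, an inflammatory caspase that senses intracellular lipopolysaccharide, fell in siSNRPB at an exon that exists in a form of 110 nt and a form of 168 nt (chr11:104951896-104952005 and chr11:104951896-104952063, minus strand). The coding 110-nt form had an inclusion level of 0.98 in siCtrl, 0.89 in siSNRPA1 and 0.84 in siSNRPB. Its inclusion reads were 314, 399 and 207 and its exclusion reads 0, 1 and 8, and the same exclusion reads served the 168-nt form. So the share of inclusion reads fell only from 100% to 96.3% (95% Wilson interval 92.8 to 98.1) while the level fell by 0.14 (adjusted p = 0.00368, Fisher's exact test). With the read share as the measure neither form passed, since the shares differed by less than 10 points. The 168-nt form, annotated in a noncoding transcript, stood at 0.74, 0.48 and 0.47, and in siSNRPA1 it could not be tested because only 1 exclusion read was found. Each form was set against skipping only, so the levels of the 110-nt and 168-nt forms do not add up. Skipping the 110-nt form shifts the frame and gives 109 in place of 377 residues, with an early stop.

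Of the other CASP8 exons, the 331-nt exon with the start codon had 0 exclusion reads in siCtrl, 10 in siSNRPA1 and 3 in siSNRPB beside 339, 668 and 291 inclusion reads (adjusted p = 0.0902 in siSNRPA1, Fisher's exact test). The 61-nt exon of CASP2, a caspase activated on the PIDDosome whose exon of this length is known to turn the long into a short protein, had a level of 0.02, 0.07 and 0.04. It had 0, 15 and 3 inclusion reads and 34, 114 and 57 exclusion reads in the 3 pools. The siSNRPA1 difference did not pass (adjusted p = 0.101, Fisher's exact test). The 180-nt exon of CASP9, the initiator caspase of the mitochondrial route, had no exclusion read among 75, 86 and 36 informative reads, and its level was 0.94 to 0.97. The 77-nt exon of CASP6, an effector caspase, had levels of 0.85, 0.5 and 0.09 on 32, 24 and 0 informative reads and no exclusion read, so it could not be tested.

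Among death receptors and their complexes, 10 exons of 4 genes were kept and none passed, out of 3 tested in siSNRPA1, 1 tested in siSNRPB and 2 tested in the direct comparison. Over all tested exons 17%, 21.3% and 14.7% passed in these comparisons, so with so few tested nothing is read from this. TNFRSF10B, a TRAIL receptor, had the deepest tested exon (106 nt), with levels of 0.96, 0.96 and 0.92. Its exclusion reads were 12, 10 and 9 beside 415, 430 and 187 inclusion reads, and the siSNRPB share differed from that of siCtrl by -1.78 points (95% Newcombe interval -5.86 to 1.19). The 418-nt exon of CFLAR, which holds the start codon of FLIP, stood at 0.99, 0.98 and 0.9, with 0, 2 and 1 exclusion reads. The 111-nt CFLAR exon, which matched no annotated exon, was intermediate at 0.36, 0.22 and 0.28. Its share of inclusion reads in siSNRPA1 differed by -13.9 points (-29.4 to 2.48, adjusted p = 0.227, Fisher's exact test). RIPK1, a kinase of TNF receptor signalling, had a 224-nt exon at 0.99, 0.99 and 0.98 with no exclusion read. Its rarely included 114-nt exon, which matched no annotated exon, had 6 inclusion reads beside 25 for exclusion in siCtrl and 1 beside 48 in siSNRPA1. This is a difference of -17.3 points in read share (adjusted p = 0.041, Fisher's exact test), but the level moved only from 0.05 to 0.01, so the exon did not pass. In TRAF2, an adaptor of TNF receptor signalling, a 112-nt exon had 0 inclusion reads beside 51 and 45 exclusion reads in siCtrl and siSNRPA1. In siSNRPB 5 inclusion and 14 exclusion reads were found, under the 20 reads required for a test.

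The BCL2 family gave 29 exons of 9 genes, and 3 of the 10 tested exons fell in siSNRPB. None of the 13 tested exons passed in siSNRPA1. Over all tested exons 16.7% fell in siSNRPB and 17% passed in either direction in siSNRPA1. With so few exons no difference between the knockdowns is read from this. The fallen exons were in BCL2L11, BCL2L12 and BCL2L13.

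BCL2L11 encodes BIM, a BH3-only activator of apoptosis, and its 104-nt exon differed between the knockdowns. The level was 0.89 in siCtrl, 0.97 in siSNRPA1 and 0.72 in siSNRPB, so that the 2 knockdowns lay on opposite sides of the control. Inclusion and exclusion reads were 56 and 5 in siCtrl, 115 and 1 in siSNRPA1, and 51 and 16 in siSNRPB. Between the knockdowns the level differed by -0.25 and the share of inclusion reads by -23 points (95% Newcombe interval -34.5 to -13.6, adjusted p = 1.22e-05, Fisher's exact test). Against siCtrl the fall in siSNRPB was near the threshold (adjusted p = 0.0488), and the difference in siSNRPA1 did not pass (adjusted p = 0.0571, Fisher's exact test for both). With halved or thinned reads, or without the minimum per read class, the fall did not pass (adjusted p = 0.222, 0.0716 and 0.154, Fisher's exact test). All BCL2L11 exons kept lie opposite the gene MIR4435-2HG, whose reads could not be told apart here. Skipping the exon shifts the frame and shortens an annotated protein from 138 to 75 residues, with a stop that is not early. The 90-nt BCL2L11 exon had levels of 0.83, 0.71 and 0.66 and did not pass in either knockdown (adjusted p = 0.223 and 0.15, Fisher's exact test). The 125-nt exon stood at 0.53, 0.3 and 0.1, on 29, 24 and 2 inclusion and 18, 31 and 12 exclusion reads. It was thus lower in both knockdowns but did not pass in siSNRPA1 (adjusted p = 0.159, Fisher's exact test). Its 14 informative reads in siSNRPB were too few for a test. In the authors' deposited table its Bayes factor was 4.3 in siSNRPA1 and 1.61e+06 in siSNRPB.

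BCL2L13, a mitochondrial relative of BCL2, fell in siSNRPB at its 144-nt exon, which was nearly always included elsewhere. The level was 0.98 in siCtrl, 0.98 in siSNRPA1 and 0.82 in siSNRPB. Exclusion reads numbered 0, 2 and 13 beside 144, 269 and 103 inclusion reads. The share of inclusion reads in siSNRPB differed by -11.2 points from siCtrl (95% Newcombe interval -18.2 to -5.98, adjusted p = 0.000189) and by -10.5 points from siSNRPA1 (-17.5 to -5.54, adjusted p = 0.000111, Fisher's exact test for both). Skipping keeps the frame and shortens the protein from 485 to 437 residues.

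BCL2L12, a proline-rich relative of BCL2, fell in siSNRPB at its coding 273-nt exon (chr19:49670216-49670488, plus strand). Levels were 0.94, 0.74 and 0.7, on 365, 298 and 141 inclusion and 4, 10 and 9 exclusion reads. The read share differed from siCtrl by -4.92 points in siSNRPB (95% Newcombe interval -9.97 to -1.65, adjusted p = 0.0107) and by -2.16 points in siSNRPA1 (-4.87 to 0.0643, adjusted p = 0.13, Fisher's exact test for both). The fall in siSNRPB did not pass with the read share as the measure, with halved reads (adjusted p = 0.168) or with thinned reads (adjusted p = 0.0806, Fisher's exact test for both). Skipping is in frame and removes part of the protein, from 334 to 243 residues. The other tested BCL2L12 exons, of 143 and 140 nt, did not pass in any comparison.

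The well-known spliced inhibitors of the family did not pass. The 248-nt exon of MCL1, whose skipping is known to give a short pro-apoptotic form, had 4 exclusion reads of 4367 informative reads in siCtrl, 15 of 4507 in siSNRPA1 and 8 of 1657 in siSNRPB. These differences in read share were -0.241 points in siSNRPA1 (95% Newcombe interval -0.464 to -0.0468, adjusted p = 0.0578) and -0.391 points in siSNRPB (-0.862 to -0.113, adjusted p = 0.0186, Fisher's exact test for both). The MCL1 level was 1, 0.99 and 0.99, so the siSNRPB difference of -0.01 was under the size required. The 157-nt exon of BCL2L1 (BCL-X), which matched no annotated exon, had levels of 0.03, 0.02 and 0.03 on 282 to 386 informative reads. This event is not the choice between the long and short BCL-X forms, which uses other splice sites.

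BAX, an effector that permeabilises the outer mitochondrial membrane, could hardly be tested. Its 286-nt exon, which spans the smaller exons of 52 and 147 nt and the sequence between them, had levels of 0.9, 0.73 and 0.34 but exclusion reads of only 0, 4 and 0. The 147-nt exon stood at 0.94, 0.9 and 0.6 with 3, 4 and 0 exclusion reads. In siSNRPA1 the 147-nt exon could be tested and did not pass (adjusted p = 1, Fisher's exact test). The deepest exons of BID (211 nt) and BAD (191 nt), both BH3-only proteins, were at 0.99 in every pool with no exclusion read. That of BBC3 (PUMA, 289 nt), induced by p53, was at 0.97, 0.8 and 0.8, also with no exclusion read. The 140-nt BAD exon had an adjusted p of 0.00482 between the knockdowns by Fisher's exact test, with levels of 0.06 in siSNRPA1 and 0.02 in siSNRPB, a difference under 0.1.

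The IAP family gave 17 exons of 4 genes, and 2 of 11 tested exons fell in each knockdown, both in BIRC5. That is 18.2%, beside 12.8% of all tested exons in siSNRPA1 and 16.7% in siSNRPB. BIRC5 encodes survivin, a part of the chromosomal passenger complex, and the 118-nt exon printed above is its exon 3, known to be left out of the survivin-ΔEx3 form. Its level was 0.83 in siCtrl (interval 0.81 to 0.85), 0.64 in siSNRPA1 (0.61 to 0.66) and 0.64 in siSNRPB (0.6 to 0.68). It rested on more exclusion reads than the passing exons of any other gene, 182, 518 and 153, beside 1176, 1215 and 390 inclusion reads. The share of inclusion reads fell from 86.6% in siCtrl to 70.1% in siSNRPA1 (adjusted p = 2.64e-25) and to 71.8% in siSNRPB (adjusted p = 2.03e-11, Fisher's exact test for both). The knockdowns differed by 1.71 points (95% Newcombe interval -2.74 to 5.95, adjusted p = 0.627, Fisher's exact test), so a difference of up to 5.95 points between them was not excluded by the reads. Skipping shifts the frame and changes the protein end, giving 137 in place of 142 residues with a stop that is not early.

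The 816-nt form of BIRC5 (chr17:78215966-78216781, annotated in a noncoding transcript) ends at the same base as exon 3 and contains it, and it shared its exclusion reads, so it is not a second measurement. Its level was 0.54, 0.34 and 0.28. The 165-nt exon, which also shared these exclusion reads, stood at 0.09, 0.12 and 0.05. The 69-nt and 101-nt exons, forms that lie between exons 2 and 3, stood at 0.11, 0.08 and 0.09 and at 0.08, 0.04 and 0.07. None of these 3 passed, and the 165-nt exon had an adjusted p of 0.00584 in siSNRPB by Fisher's exact test with a difference of -0.04.

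**Figure D3:**
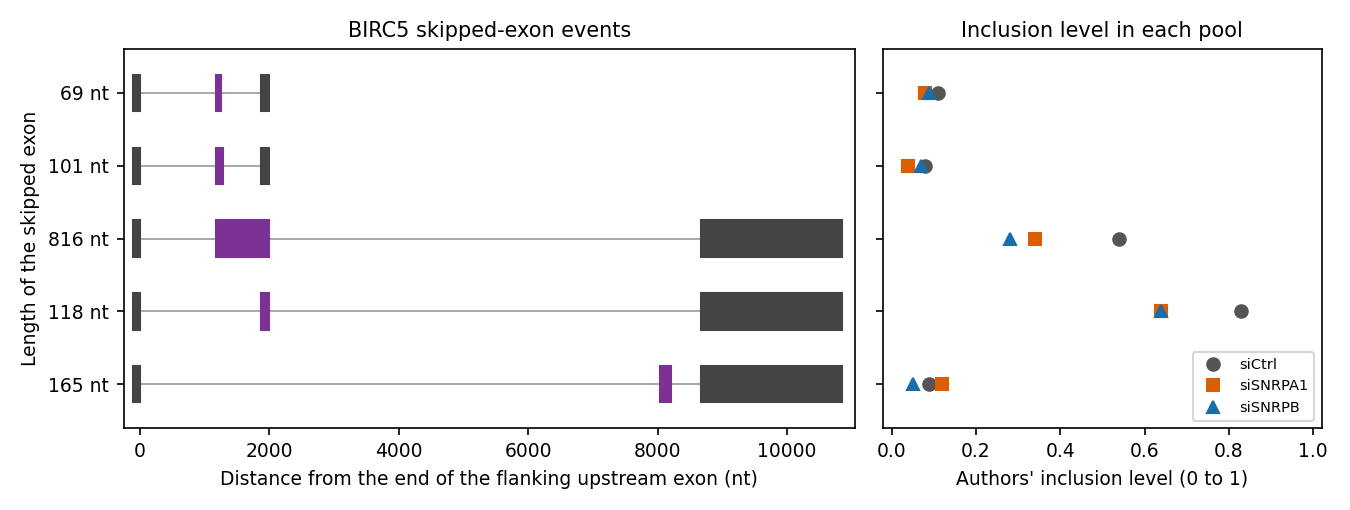
The 5 BIRC5 exons, drawn to scale as distance in nt from the end of the upstream flanking exon (left; skipped exon in purple, flanking exons in grey), and the authors' inclusion level of each in the 3 pools (right). The 118-nt and 816-nt exons stand lower in both knockdowns than in siCtrl, and the other 3 exons lie at 0.12 or below in every pool.

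The other IAP genes did not pass. XIAP, an inhibitor of caspases, had levels of 0.95, 0.96 and 0.97 at its 909-nt exon with the start codon, and its siSNRPB share differed by 0.344 points (95% Newcombe interval -0.428 to 1.08). Its 127-nt exon had levels of 0.47, 0.23 and 0.49 on 56, 40 and 44 inclusion reads and 0, 2 and 0 exclusion reads, too few of the latter for a test; in the authors' deposited table its Bayes factor in siSNRPA1 was 38.5. BIRC2 (cIAP1), a ubiquitin ligase of TNF receptor signalling, had levels of 0.97, 0.94 and 0.97 at its 2152-nt exon on 2463, 3085 and 1774 informative reads. A rarely included 127-nt BIRC2 exon had 31 inclusion reads of 471 informative reads in siCtrl, 15 of 558 in siSNRPA1 and 6 of 367 in siSNRPB. Its adjusted p was 0.0165 and 0.00292 by Fisher's exact test, but its level moved only from 0.05 to 0.02 and 0.01. BIRC6, a giant ubiquitin-conjugating member, had levels of 0.38, 0.24 and 0.25 at its 134-nt exon with no exclusion read. A 173-nt BIRC6 exon had 1, 20 and 11 inclusion reads and 46, 34 and 20 exclusion reads in the 3 pools. The share of inclusion reads was 34.9 and 33.4 points above siCtrl (adjusted p = 0.000165 and 0.000733, Fisher's exact test), while the level moved from 0.01 to 0.06 and 0.06 and so did not pass.

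Of mitochondrial factors and the apoptosome, 15 exons of 4 genes were kept. AIFM1, the apoptosis-inducing factor, fell in siSNRPA1 at a rarely included 203-nt exon (chrX:130137323-130137525, minus strand, partly coding). The level was 0.15 in siCtrl (interval 0.09 to 0.22), 0.02 in siSNRPA1 and 0.02 in siSNRPB. Inclusion and exclusion reads were 22 and 5 in siCtrl, 5 and 33 in siSNRPA1, and 0 and 5 in siSNRPB, too few in the last for a test. The read share differed by -68.3 points in siSNRPA1 (95% Newcombe interval -81 to -45.3, adjusted p = 1.06e-06, Fisher's exact test), far more than the level, which also uses the 120 and 138 reads that fit both isoforms. Insertion of this exon gives 324 in place of 613 residues, with an early stop.

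APAF1, the scaffold of the apoptosome, was higher in siSNRPB than in siSNRPA1 at its 129-nt exon. The level was 0.56 in siCtrl, 0.56 in siSNRPA1 and 0.91 in siSNRPB. Inclusion and exclusion reads were 21 and 1, 55 and 14, and 36 and 0. The measures placed siCtrl differently. In level it equalled siSNRPA1, but as a fraction of reads the inclusion share of siSNRPA1 minus that of siCtrl was -0.157. So it is not settled which knockdown departed from the control. Between the knockdowns the share differed by 20.3 points (95% Newcombe interval 7.89 to 31.2, adjusted p = 0.0116, Fisher's exact test). Against siCtrl the exon did not pass in siSNRPA1 (adjusted p = 0.199, Fisher's exact test) and could not be tested in siSNRPB, where 1 exclusion read was present over both pools. The exon is in frame, and its skipping changes 1248 residues to 1205.

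DIABLO encodes SMAC, a mitochondrial antagonist of IAP proteins, and gave 8 exons, none of which passed. The deepest, of 133 nt, was at 0.99, 0.99 and 0.98 with no exclusion read. The 132-nt exon was intermediate at 0.37, 0.46 and 0.44, also with no exclusion read among 135, 285 and 106 informative reads. A 98-nt DIABLO exon had 10 inclusion reads beside 92 for exclusion in siCtrl and 1 beside 170 in siSNRPA1 (adjusted p = 0.00245, Fisher's exact test), with levels of 0.06 and 0.01. The 86-nt exon had an adjusted p of 0.013 between the knockdowns by Fisher's exact test, with levels of 0.03 in siSNRPA1 and 0.01 in siSNRPB. HTRA2, a mitochondrial serine protease, had a 195-nt exon at 0.98, 0.98 and 0.96 with 0, 1 and 0 exclusion reads.

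Of the regulators of p53, 15 exons were kept, 10 in MDM2 and 5 in MDM4, and 4 could be tested in each knockdown. MDM2, the ubiquitin ligase of p53, rose in siSNRPB at its rarely included 93-nt exon. The level was 0.02 in siCtrl (interval 0 to 0.04), 0.03 in siSNRPA1 (0.02 to 0.06) and 0.2 in siSNRPB (0.12 to 0.31). Inclusion and exclusion reads were 3 and 128 in siCtrl, 10 and 172 in siSNRPA1, and 16 and 37 in siSNRPB. The share of inclusion reads was thus 2.29%, 5.49% and 30.2%. The siSNRPB share was 27.9 points above siCtrl (95% Newcombe interval 16.4 to 41.3, adjusted p = 3.84e-06) and 24.7 points above siSNRPA1 (13.2 to 38.3, adjusted p = 0.00011, Fisher's exact test for both). The difference between siSNRPA1 and siCtrl did not pass (adjusted p = 0.386, Fisher's exact test). Inserted in an annotated transcript the exon keeps the frame and lengthens the protein from 491 to 522 residues. The 87-nt MDM2 exon, which shares the exclusion reads of the 93-nt exon, had 7, 2 and 0 inclusion reads beside 128, 172 and 37 exclusion reads and did not pass (adjusted p = 0.106 and 0.475 in siSNRPA1 and siSNRPB, Fisher's exact test).

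MDM4, an inhibitor of p53 related to MDM2, fell at its 68-nt exon in both knockdowns. Skipping of this exon is known to give the truncated MDM4-S form, and in the annotation the transcript with it codes for 490 residues and the one without for 140. The level was 0.33 in siCtrl (interval 0.24 to 0.43), 0.19 in siSNRPA1 (0.14 to 0.25) and 0.16 in siSNRPB (0.09 to 0.24). Inclusion and exclusion reads were 40 and 17, 40 and 51, and 15 and 21. The read share differed by -26.2 points in siSNRPA1 (95% Newcombe interval -40.4 to -9.8, adjusted p = 0.0117) and by -28.5 points in siSNRPB (-46.3 to -7.89, adjusted p = 0.0284, Fisher's exact test for both). Between the knockdowns the difference was -2.29 points with an interval from -20.1 to 16.6, too wide to tell them apart or alike. With the reads thinned to the smallest pool neither fall passed (adjusted p = 0.0916 and 0.0533, Fisher's exact test).

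The short form of the same exon, of 39 nt, uses the same exclusion reads and stood at 0.23, 0.13 and 0.08. It had 17, 19 and 4 inclusion reads, and it fell in siSNRPB (adjusted p = 0.0361) and did not pass in siSNRPA1 (adjusted p = 0.0764, Fisher's exact test for both). The fall did not pass without the minimum per read class (adjusted p = 0.116, Fisher's exact test). The other 3 MDM4 exons had no exclusion read in any pool. Of these the 161-nt exon had levels of 0.58, 0.88 and 0.78.

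**Figure D4:**
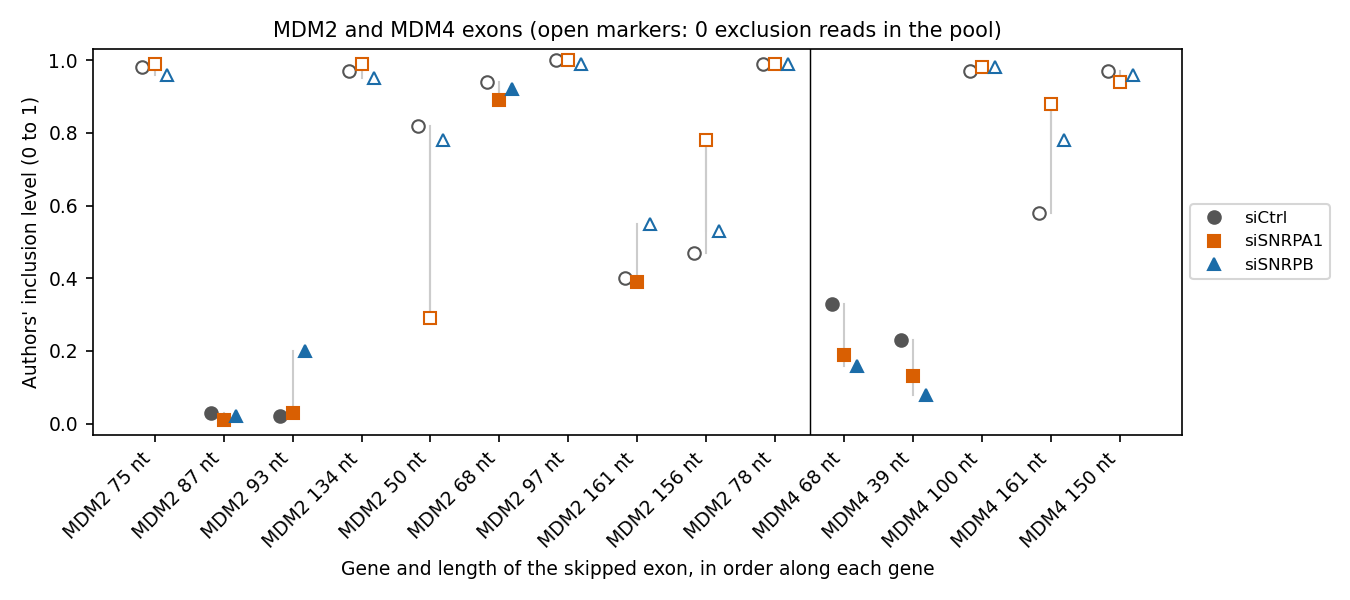
Authors' inclusion level (vertical axis, 0 to 1) of the 10 MDM2 and 5 MDM4 exons in order along each gene, for siCtrl (circles), siSNRPA1 (squares) and siSNRPB (triangles), with open markers where the pool had 0 exclusion reads. The MDM2 93-nt exon is higher in siSNRPB and the 68-nt and 39-nt MDM4 forms are lower in both knockdowns, while exons such as the 50-nt and 156-nt MDM2 exons differ in level without any exclusion read.

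A rule with cut-offs set here was applied to the authors' deposited Bayes factors. It can call an exon without exclusion reads, and some exons of these genes were called in that way. With a Bayes factor of at least 10 (the authors' deposited ratio, evidence that levels differ over evidence that they do not) and a difference of at least 0.1, 9 exons were lower and 2 higher in siSNRPA1 of 99 exons with 20 informative reads in both pools. That is 9.09% and 2.02%, beside 6.87% lower and 2.18% higher over all 17856 exons. In siSNRPB 8 were lower and 1 higher of 87 exons, or 9.2% and 1.15%, beside 6.01% and 2.6% of 14014 exons. Of the 11 exons in siSNRPA1, 4 also passed the read test and 6 could not be tested, and of the 9 in siSNRPB these were 7 and 2.

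No exclusion read was present in either pool for 4 of the 11 exons in siSNRPA1. In the authors' deposited table the 50-nt MDM2 exon went from 0.82 to 0.29 (Bayes factor 70691) on 32 and 20 inclusion reads and 71 and 151 reads that fit both isoforms. The 156-nt MDM2 exon went from 0.47 to 0.78 on 123 and 287 inclusion reads, and the 171-nt BCL2L13 exon, which holds the start codon, from 0.86 to 0.4 on 55 and 30. The 174-nt CASP4 exon went from 0.77 to 0.58 in the same table. In siSNRPB 1 exon was of this kind, the 286-nt BAX exon at 0.9 against 0.34, and its inclusion reads per read that fits both isoforms went from 2.22 to 0.782. For each of these exons no read that fits only the transcript without the exon was counted in either pool.

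Conversely, some exons that passed the read test had Bayes factors under 10 in the authors' deposited table. In siSNRPA1 this was the 68-nt MDM4 exon (2.53), and in siSNRPB it was the 104-nt BCL2L11 exon (1.85) and the 68-nt and 39-nt MDM4 forms (4.35 and 6.57). The 93-nt MDM2 exon in siSNRPB had a factor of 71781, and the 118-nt BIRC5 exon reached 1e+12 in both knockdowns.

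**Figure D5:**
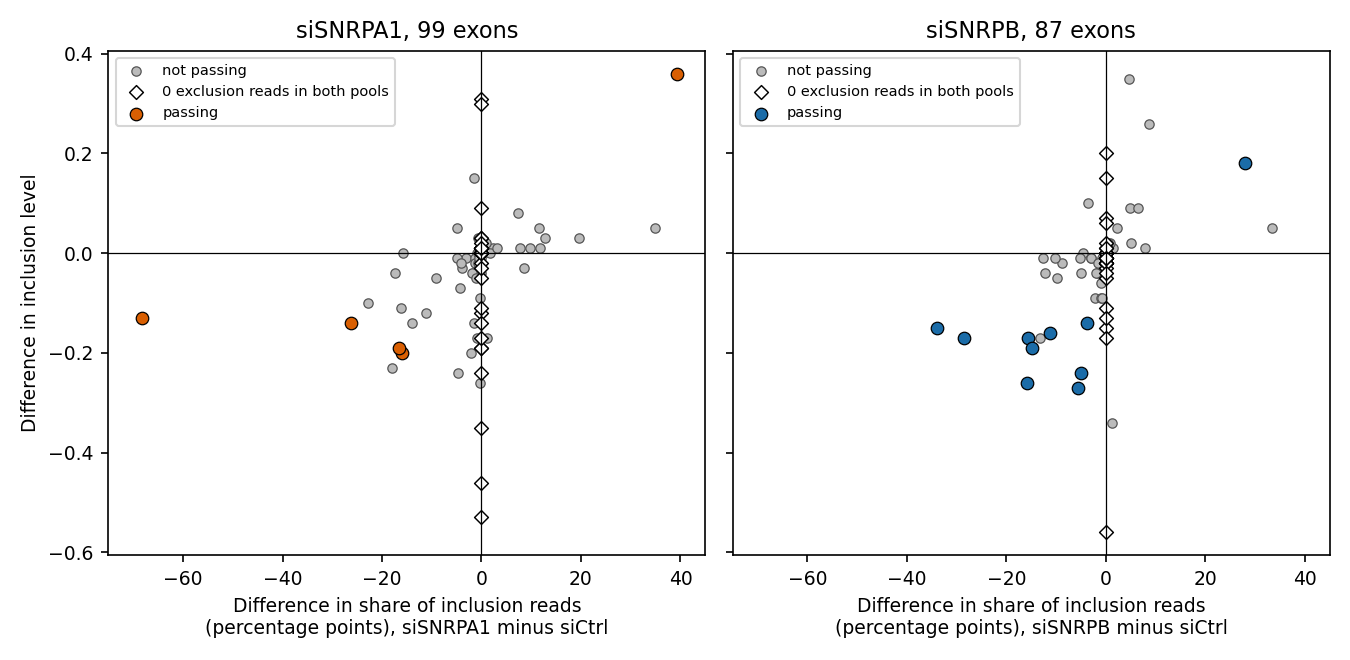
Difference from siCtrl in the authors' inclusion level (vertical axis) against the difference in the share of inclusion reads in percentage points (horizontal axis) for 99 exons in siSNRPA1 (left) and 87 in siSNRPB (right). Diamonds on the vertical line are exons with 0 exclusion reads in both pools, whose share cannot differ while their level ranges from -0.56 to 0.31, and coloured points passed.

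The output of the genes was described by the reads that fit an isoform of their events, per 1000000 such reads of the pool. This measure is crude, covers only annotated skipped-exon events and was not tested. Over the 28 genes with a kept exon its median was 95% of siCtrl in siSNRPA1 and 96.9% in siSNRPB. BIRC5 stood at 99.2% and 87.9%, MDM2 at 97.6% and 105%, and MDM4 at 85% and 101%. Of p53-induced genes, BBC3 stood at 95.8% and 96.1% and BAX at 92.4% and 81.6%. BCL2L11 stood at 142% and 164%, BCL2L1 at 123% and 149%, and CASP2 at 186% and 196%, while MCL1 stood at 75.6% and 62.3%.

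Beyond the 38 genes, a list of 115 other genes of apoptosis and the p53 pathway gave 195 exons in 69 genes. In siSNRPA1 66 of these were tested, of which 4 fell and 1 rose, or 6.06% and 1.52% beside 12.8% and 4.18% of all tested exons. In siSNRPB 40 were tested, of which 7 fell and none rose, so that 17.5% fell beside 16.7% of all tested exons. The 7 include a 131-nt and a 105-nt form of 1 TNFRSF12A exon, which end at the same base and had equal exclusion reads. Between the knockdowns 56 were tested, with 1 lower and 2 higher in siSNRPB, or 5.36% in either direction beside 14.7%. The median differences were -0.015, -0.01 and 0.01. ZMAT3, a zinc finger gene induced by p53, went from 0.79 to 0.35 at a 121-nt exon in siSNRPA1 (adjusted p = 0.0264, Fisher's exact test). TNFSF12 (TWEAK, a ligand of the TNF family) rose from 0.15 to 0.35 at a 239-nt exon, and RIPK2, a kinase of NOD receptor signalling, fell from 0.31 to 0.11 at a 154-nt exon (adjusted p = 0.0103 and 0.0152, Fisher's exact test). In siSNRPB, IKBKB, the kinase that activates NF-κB, fell from 0.96 to 0.23 at a 62-nt exon, on 83 inclusion and 0 exclusion reads in siCtrl against 8 and 13 (adjusted p = 1.18e-09, Fisher's exact test). TNFRSF12A, the receptor of TWEAK, fell from 0.92 to 0.69 at a 131-nt exon, and TRAF3, an adaptor of TNF receptor signalling, from 0.19 to 0.02 at a 127-nt exon (adjusted p = 0.0378 and 0.00638, Fisher's exact test). The TNFRSF12A fall rested on few exclusion reads, 3 beside 536 inclusion reads in siCtrl against 9 beside 322 in siSNRPB.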

How the data were processed

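Libraries were made 48 h after transfection with a stranded low-input total RNA kit, per the labels' protocols. STAR 2.7 and hg38 are named without a role, per the submitters' processing notes. The column names are those of MISO; its version, settings and strand option, and the way libraries were pooled, were not given in the sources used. The authors deposited, per pool, an inclusion level per event (a fraction, per the file headers the posterior mean) and read counts in classes (inclusion only, exclusion only, both, neither). Per the file headers, 2 comparison files give the difference in level (a score between -1 and 1) and the Bayes factor, which is a ratio. Columns with values of single samples that stayed unused numbered 0.

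Genes and exon places came from GENCODE 29, in which 4 of the 100 exons matched no annotated exon. For each skipped exon only its event with the highest number of informative reads entered (in 1 of the 100 exons, the highest among events that met the read rule). Exons overlapping a gene on the other strand (10 of 100) and exons that share exclusion reads are uncertain. Coding consequences were computed on annotated transcripts. Intervals are 95% Wilson (shares) or Newcombe (differences) and cover counting error only; the labels do not say whether libraries came from separate cultures. Tests are as given in the text. The procedure was tested on simulated reads without spread between libraries, in which the level was set to the read share. So that check does not cover spread between libraries or levels that depart from the read share. Python 3.11.15, scipy 1.17.1, numpy 2.4.6, pandas 2.3.3 and matplotlib 3.10.9 were used.

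The genes, lists and rules were chosen with earlier results of these data known. Described in full were all passing exons; for genes with none, the exon with the most informative reads and known regulated exons; and, of other pathway genes, the 3 largest passing differences per knockdown. Further exons with an adjusted p under 0.05, without exclusion reads or with too few reads for a test were named after their values were seen. Alternatives changed the read and difference minimums, the measure of inclusion, the read depth, the event choice and the call rule. Sequences of the other passing exons are not reported here.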

Additional observations from a re-analysis of the deposited data

Results flagged for a closer look

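At 4 exons the difference between the knockdowns itself passed Fisher's exact test with Benjamini-Hochberg adjustment, as siSNRPB minus siSNRPA1 in inclusion level. It was -0.25 for the 104-nt exon of BCL2L11 (adjusted p = 1.22e-05, Fisher's exact test), where a gene lies on the other strand. It was -0.16 for the 144-nt exon of BCL2L13 (adjusted p = 0.000111, Fisher's exact test). The difference was 0.35 for the 129-nt exon of APAF1 (adjusted p = 0.0116, Fisher's exact test), on 69 and 36 informative reads. It was 0.17 for the 93-nt exon of MDM2 (adjusted p = 0.00011, Fisher's exact test). The siSNRPB pool is 1 library, and its part in these differences was not tested, since no value per library was used.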

How the results depend on the processing

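No paired analysis was possible because each group is 1 pool of reads without values per library, and no replicate could be left out for the same reason. Of 19 passes of an exon in a comparison, none was lost with a minimum of 10 or 50 informative reads, all annotated events or exons on opposite-strand genes left out, where these gave a value (19, 14, 19 and 17 passes). A minimum difference of 0.2 kept 7 of 19, no minimum per read class 15 of 19 and the read share as measure 16 of 19. The Bayes factor rule kept 11 of the 15 it covers. Thinning to the smallest pool kept 11 of 19, with 4 lost and 4 no longer testable, and halved reads kept 9 of 19, with 3 lost and 7 no longer testable. The adjusted p of the MDM4 68-nt exon ran from 0.0108 to 0.131 in siSNRPA1 and from 0.0281 to 0.0917 in siSNRPB, that of the 39-nt form in siSNRPB from 0.0357 to 0.116, that of the BCL2L11 exon in siSNRPB from 0.0455 to 0.222, that of the CASP8 exon from 0.0304 to 0.084 and that of the BCL2L12 exon from 0.00971 to 0.168 (Fisher's exact test).

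For the listed genes in siSNRPA1, 5 of 42 tested exons passed. This became 3 of 29 with at least 50 reads, 2 of 42 with a difference of 0.2 and 9 of 42 with none required. It became 2 of 29 with halved reads, 2 of 28 with thinned reads and 11 of 99 by the Bayes factor. Shares over all exons were computed only for the main rule and the Bayes factor rule, so these moves are not set against a background. In siSNRPB 10 of 30 became 3 of 30 with a difference of 0.2, 4 of 18 with halved and 6 of 25 with thinned reads. Between the knockdowns 4 of 34 became 2 with a difference of 0.2, 9 with none required and 7 by read share, each of 34. For the other pathway genes in siSNRPA1, 5 of 66 became 3 of 52 with at least 50 reads, 3 of 66 with a difference of 0.2 and 14 of 66 with none required. With halved reads this was 0 of 43, with thinned reads 1 of 38, and by the Bayes factor 17 exons were called. In siSNRPB 7 of 40 became 3 of 33 with at least 50 reads, 2 of 40 with a difference of 0.2 and 22 of 40 with none required. By read share this was 14 of 40, with halved reads 1 of 29 and without the class minimum 4 of 162. Between the knockdowns 3 of 56 became 1 with a difference of 0.2, 13 with none required and 6 by read share, each of 56. With halved reads this was 0 of 37 and without the class minimum 1 of 162. The sign of the 816-nt BIRC5 form between the knockdowns, -0.06 in level with an adjusted p of 1 by Fisher's exact test, was reversed in read share (0.0005). The cause of these moves was not tested beyond fewer reads or exons tested by construction. In siSNRPB 70 of the 100 exons could not be tested, although 87 had at least 20 informative reads there. Most of the 70 thus lacked the 5 reads of each class.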
